A study of Mus musculus with 9 samples.

Results

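The genes described here make cholesterol and fatty acids or control their making, and there are 33 of them. They were chosen by name and role: 19 enzymes that build sterols from acetyl-CoA, 6 genes that regulate the pathway or carry sterol, and 8 genes of fatty acid synthesis and desaturation. Every gene had at least 1 probe on the array. Of the 33, 32 were bright enough to be tested among 19900 gene names, and each of the 32 lay well above background on all 9 arrays, so the filter on dim probes did not depend on any group. Srebf1, the gene of the transcription factor SREBP-1, was the exception and is described with the regulators.

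RNA came from mouse embryonic stem cells, which are taken from the early embryo and divide in culture without losing their potency, and 1 Agilent single-colour array was hybridised per sample. The study asked what loss of Xpc does to gene expression in these cells. The Xpc protein recognises damaged DNA for nucleotide excision repair. The first group of 3 samples carried floxed Xpc alleles (Xpc f/f, flanked by sites that Cre recombinase recombines), had not been given Tx and kept the gene. The second group of 3 carried the same floxed alleles and was collected 4 days after deletion had been induced with Tx. The third group of 3 was a subcloned Xpc-null line. No group analysed here received Tx and kept Xpc, so an effect of the induction and an effect of losing Xpc cannot be told apart, and a subclone can differ from its parent in more than 1 gene. The labels number 3 replicates per group and do not say that they were separate cultures, so a p-value may reflect only the technical spread.

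Values are log2 of the processed spot intensity minus log2 of the same array's 75th percentile, so that 0 is the level of that percentile and a difference of 1 is a doubling. Between 47.4% and 57.9% of spots were well above background, with none saturated. Arrays sat on 3 slides: floxed arrays 1 and 2 on slide 1, floxed array 3 and null array 3 on slide 2, and the 3 induced arrays with null arrays 1 and 2 on slide 3. Floxed array 3 stood apart from the other floxed arrays in these genes, as given below, and the values that the comparisons with floxed cells turn on are therefore also given without it. Xpc itself read 0.59, 0.55 and 0.16 on the floxed arrays, -1.11, -0.68 and -1.05 on the induced arrays and -0.85, -1.53 and -1.37 on the null arrays, lower on each of the 6 arrays labelled as lacking it. All 10 markers of embryonic stem cells were above background on every array.

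Cells make cholesterol from acetyl-CoA through mevalonate, isoprenoid units, squalene and lanosterol, and they make saturated fatty acids from the same acetyl-CoA before elongases and desaturases modify them. Transcription of both sets of genes is driven by the SREBP proteins. When membrane sterol is low, Scap carries SREBP from the endoplasmic reticulum to the Golgi for cleavage, and when sterol is plentiful the Insig proteins hold Scap back. SREBP-2, from Srebf2, acts mainly on sterol genes and SREBP-1 mainly on fatty acid genes. Both act with NF-Y, which binds CCAAT boxes, and with Sp1, which binds GC boxes.

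Promoters are shown because 13 of the 19 sterol enzymes read higher on every null array than on any floxed array, against 12% of all genes. RefSeq promoter windows (GRCm38.p6) were matched by symbol for 26 of the 33 genes, with 34 windows in all, and the 250 bases before the start were searched on both strands for CCAAT (NF-Y), GGGCGG (GC box), TCACNCCAC (a sterol regulatory element, SRE) and CACGTG (E-box). Genes with no window in the table were Fdft1, Fdps, Sqle, Stard4, Scd1, Scd2 and Fads1. CCAAT was found for 15 of 16 sterol enzymes, 4 of 5 regulators and 1 of 5 fatty acid genes, against 37.5% of all 27025 genes with a window. The GC box was found for 14 of 16 sterol enzymes, 5 of 5 regulators and 2 of 5 fatty acid genes, against 35.4% of all genes. A gene counted if any of its windows matched, and the 5 regulators had 10 windows. By window, CCAAT was found in 15 of 19 for sterol enzymes and 5 of 10 for regulators, against 33.8% of all windows. The GC box was found in 15 of 19 and 7 of 10, against 32.7%. An SRE of these letters was found for 1 gene of the 26, Hmgcs1, at 137 bases before the start, and for 1.22% of all genes, and the E-box for 5 of the 26 and 6.86% of all genes. A match is a description and not a binding site, and no match says only that these letters are not in the window. The first 3 windows below belong to an early sterol enzyme, a sterol-responsive regulator and a late sterol enzyme whose signals were higher on every null array than on any floxed array, the fourth to a sterol enzyme rich in CCAAT whose difference was 0.06, and the fifth to the 1 fatty acid gene with CCAAT. Each is written 5′ to 3′ along the gene's strand and ends at the base before the start. Capitals mark CCAAT (or its complement, ATTGG) and, in Hmgcs1, also the SRE.
Hmgcs1, chr13:119690101-119690350, plus strand: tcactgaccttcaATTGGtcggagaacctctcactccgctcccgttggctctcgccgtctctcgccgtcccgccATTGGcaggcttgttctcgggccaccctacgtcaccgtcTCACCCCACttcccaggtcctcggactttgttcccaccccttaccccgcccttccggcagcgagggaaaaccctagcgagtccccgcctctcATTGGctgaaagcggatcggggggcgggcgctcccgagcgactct
Insig1, chr5:28071162-28071411, plus strand: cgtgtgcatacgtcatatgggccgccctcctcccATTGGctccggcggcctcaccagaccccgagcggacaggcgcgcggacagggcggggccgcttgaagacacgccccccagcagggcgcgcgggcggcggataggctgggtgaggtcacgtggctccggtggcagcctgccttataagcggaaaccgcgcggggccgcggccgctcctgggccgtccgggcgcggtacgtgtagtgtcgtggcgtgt
Msmo1, chr8:64733579-64733828, minus strand: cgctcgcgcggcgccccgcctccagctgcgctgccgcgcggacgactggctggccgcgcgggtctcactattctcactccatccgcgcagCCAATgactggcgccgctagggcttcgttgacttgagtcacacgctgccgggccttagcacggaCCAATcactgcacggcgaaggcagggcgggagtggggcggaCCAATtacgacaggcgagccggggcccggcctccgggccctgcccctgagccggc
Mvk, chr5:114444019-114444268, plus strand: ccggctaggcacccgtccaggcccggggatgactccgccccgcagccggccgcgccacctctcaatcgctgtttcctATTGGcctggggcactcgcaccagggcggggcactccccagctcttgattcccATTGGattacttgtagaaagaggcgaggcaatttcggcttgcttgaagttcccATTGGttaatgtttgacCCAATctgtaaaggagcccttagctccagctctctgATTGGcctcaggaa
Fasn, chr11:120824548-120824797, minus strand: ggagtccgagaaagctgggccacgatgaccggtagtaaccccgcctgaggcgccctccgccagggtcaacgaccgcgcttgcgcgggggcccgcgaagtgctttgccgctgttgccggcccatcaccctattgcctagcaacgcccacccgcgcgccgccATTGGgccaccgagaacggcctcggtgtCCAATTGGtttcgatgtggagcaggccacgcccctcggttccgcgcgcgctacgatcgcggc
CCAAT occurs 3 times in the windows of Hmgcs1, Msmo1 and Fasn, 5 times in that of Mvk and 1 time in that of Insig1, and in Fasn a CCAAT and an ATTGG overlap.

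In Xpc-null cells 4 of the 32 genes tested rose against floxed cells and none fell. They were Insig1, which retains the SREBP escort Scap, Msmo1, a demethylase of the late sterol pathway, and the stearoyl-CoA desaturases Scd1 and Scd2, which put the double bond into newly made fatty acids. Among all 19900 genes 0.714% rose and 1.07% fell, 1.78% in all, by the same rule (limma, Benjamini-Hochberg adjusted p under 0.05 over all genes). The difference was above 0 for 30 of the 32 genes, against 51.8% of all genes, with Ebp and Elovl6 below it. At an unadjusted p under 0.05, 23 were higher and 1, Elovl6, lower, against 11.7% and 11.1% of all genes, 22.8% together. The null arrays lay wholly above the floxed arrays for 20 of the 32, against 12% of all genes, and wholly below them for 1, Elovl6, against 11.4% of all genes. Median differences were 0.54 for the 19 sterol enzymes, 0.17 for the 5 regulators tested and 0.42 for the 8 fatty acid genes, beside 0.01 for all genes. Without floxed array 3, 23 of the 32 passed, 22 higher and Elovl6 lower, where 24.8% of all genes passed (13.1% higher and 11.8% lower), while none passed with slide as a block or without any 1 of 7 other arrays, and Insig1 alone passed without induced array 1. Slide 1 held floxed arrays only. With slide as a block, the null minus floxed difference therefore rests on 1 floxed and 1 null array, those of slide 2. Of all genes 0.417% to 1.02% passed without 1 of those 7 arrays and 1.32% without induced array 1.

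**Figure D1:**
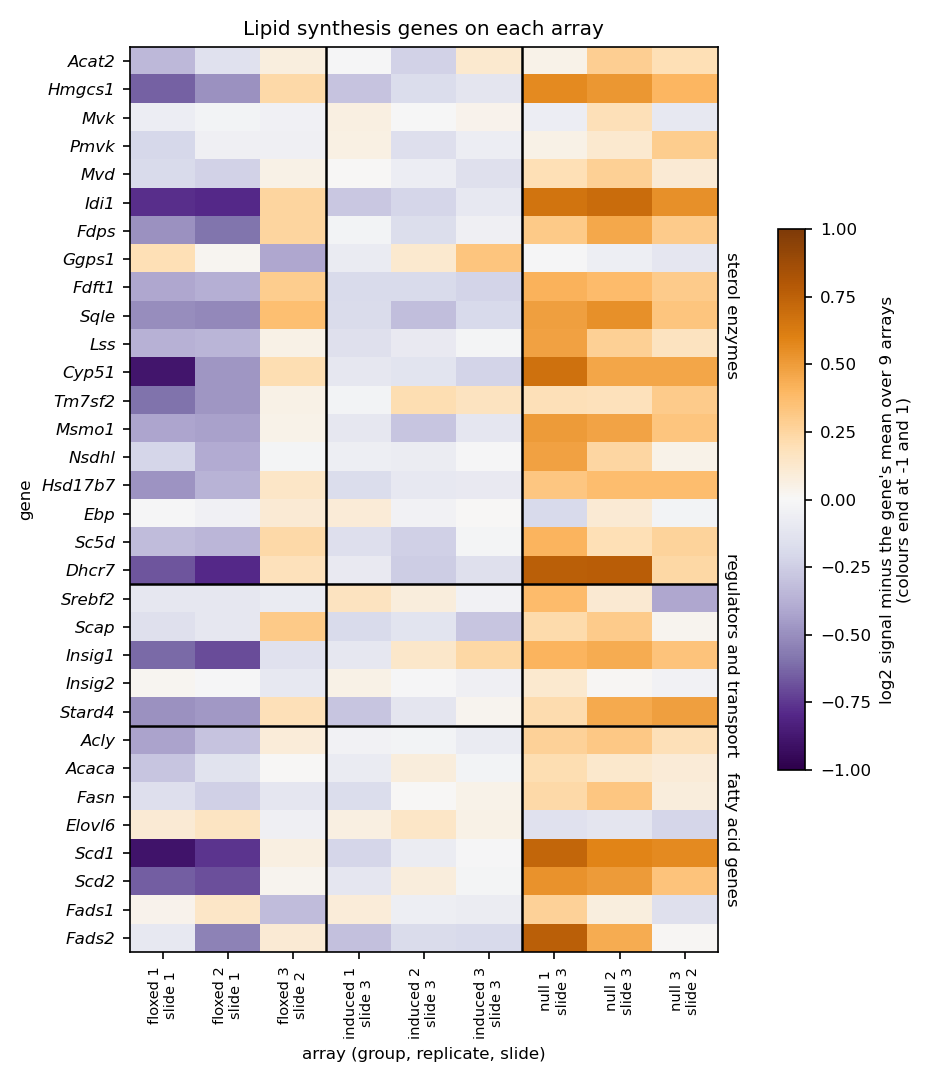
Each row is 1 gene and each column 1 array, grouped as floxed, induced and null with the slide named, and the colour is the log2 signal minus that gene's mean over the 9 arrays. Most rows are lowest on floxed arrays 1 and 2 and highest on the 3 null arrays, and floxed array 3 resembles the null arrays more than the other floxed arrays do; Elovl6 runs the other way.

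Among the sterol enzymes Msmo1 rose. Msmo1 removes the methyl groups at carbon 4 of the sterol ring, and its probe lies at chr8:67196982-67197041 in mm9, the build of the array files. It read 3.45, 3.43 and 3.91 on the floxed arrays, 3.75, 3.58 and 3.75 on the induced arrays and 4.37, 4.33 and 4.19 on the null arrays. Every null array was above every other array, and floxed array 3 was the highest of the rest. The null minus floxed difference was 0.70 ± 0.14 (SE, 3 and 3 arrays; 1.63-fold) with an adjusted p of 0.045 in limma, 0.86 without floxed array 3 and 0.29 with slide as a block, and the adjusted p ran from 0.0009 to 0.545 over the 21 alternatives.

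The sterol enzymes with the next smallest p-values were Idi1, Dhcr7 and Cyp51, and none of them passed. Idi1, which isomerises the basic isoprenoid unit, read 2.45, 2.44 and 3.49 on floxed, 2.95, 3.02 and 3.14 on induced and 3.90, 3.94 and 3.78 on null arrays. Floxed array 3 was above all induced arrays here and still below all null arrays. The null minus floxed difference of Idi1 was 1.08 ± 0.25 (SE; 2.11-fold, adjusted p = 0.0695), and 1.42 without floxed array 3. Dhcr7, the reductase of the last step to cholesterol, read -1.18, -1.29 and -0.31 on floxed, -0.59, -0.75 and -0.65 on induced and 0.26, 0.27 and -0.26 on null arrays. On slide 2 its floxed and null readings were nearly equal, a difference of 0.05. Over all arrays Dhcr7 differed by 1.02 ± 0.25 (2.03-fold, adjusted p = 0.0804), and by 1.33 without floxed array 3. Cyp51, the demethylase of lanosterol, read -1.23, -0.83 and -0.14 on floxed, -0.46, -0.48 and -0.57 on induced and 0.32, 0.11 and 0.11 on null arrays. On floxed array 1 it lay farther below its own mean than any other sterol enzyme did, and its difference was 0.92 ± 0.23 (1.89-fold, adjusted p = 0.0835), and 1.21 without floxed array 3.

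**Figure D2:**
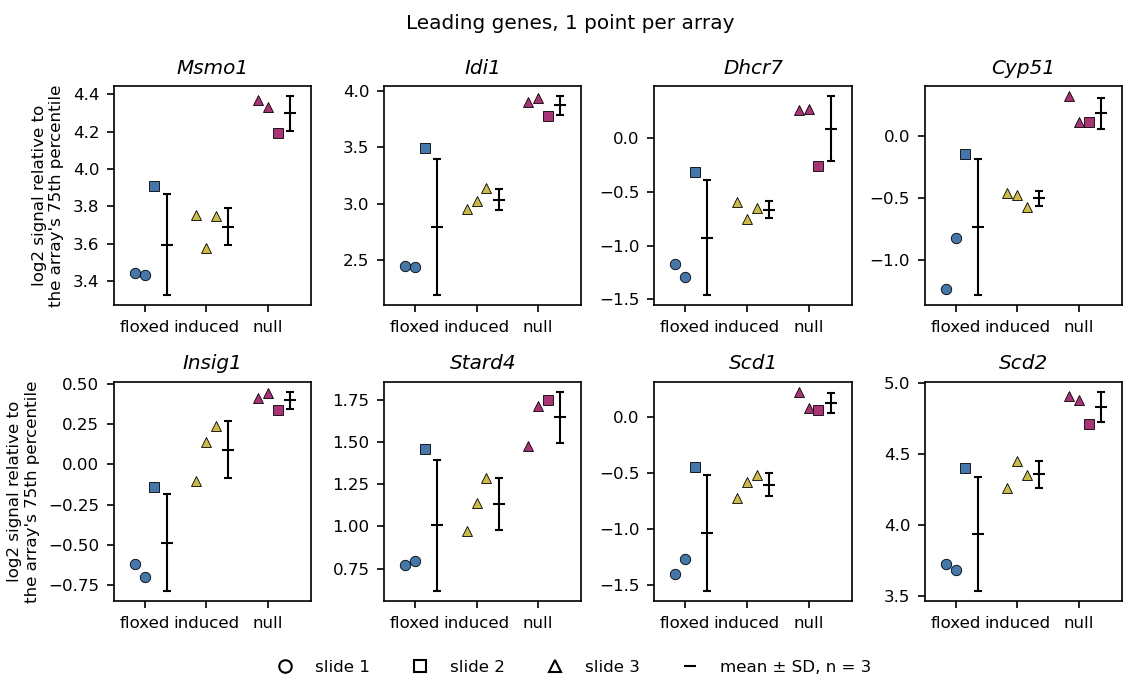
Log2 signal relative to the array's 75th percentile for 8 genes, 1 point per array with the shape giving the slide, and the mean ± SD (n = 3) beside each group; each panel has its own axis, which does not start at 0. In all 8 panels the 3 null arrays lie above the 3 induced arrays, and the slide 2 floxed array (square) lies above the slide 1 floxed arrays (circles).

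The remaining sterol enzymes did not pass, and their differences followed the pathway unevenly. At its entry Acat2, which joins 2 acetyl-CoA units, differed by 0.31, and Hmgcs1, which adds the third to make HMG-CoA, differed by 0.79 (3.67, 3.83 and 4.55 on floxed against 4.88, 4.83 and 4.72 on null arrays). Mvk and Pmvk, the kinases of mevalonate and of phosphomevalonate, differed by 0.06 and 0.25, and the decarboxylase Mvd by 0.32. Fdps, which makes farnesyl diphosphate, differed by 0.63, whereas Ggps1, whose geranylgeranyl diphosphate leaves the sterol route for protein prenylation, differed by 0.00085 ± 0.17 (SE). Fdft1 and Sqle, which make squalene and its epoxide, differed by 0.53 and 0.68, and Lss, the cyclase that closes the sterol ring, by 0.54. In the late steps Hsd17b7 differed by 0.59, Tm7sf2 by 0.57, Nsdhl by 0.46 and Sc5d by 0.44, while the isomerase Ebp differed by -0.06. With floxed array 3 left out, the differences were 1.06 for Hmgcs1, 0.89 for Fdps, 0.97 for Sqle, 0.06 for Mvk, -0.17 for Ggps1 and -0.02 for Ebp. Of the 19, 13 had null arrays wholly above the floxed arrays, against 12% of all genes, and the 6 others, Acat2, Mvk, Ggps1, Sqle, Ebp and Sc5d, overlapped. Sqle overlapped through slide 2 alone, where it read 4.27 on the floxed and 4.24 on the null array.

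Insig1 was the regulator that rose. It read -0.62, -0.70 and -0.14 on floxed, -0.11, 0.14 and 0.24 on induced and 0.41, 0.45 and 0.34 on null arrays (probe at chr5:28404246-28404305, mm9). The 3 groups did not overlap at all, with induced arrays between the other two groups. Its null minus floxed difference was 0.89 ± 0.16 (SE; 1.85-fold, adjusted p = 0.0321), 1.06 without floxed array 3 and 0.48 with slide as a block, and its adjusted p ran from 0.000776 to 0.433 over the 21 alternatives. Insig1 is itself a sterol-repressed SREBP target. Its paralog Insig2, which is not driven by sterols in the same way, differed by 0.06 ± 0.09 with overlapping groups. A second Insig2 probe read -0.24, -0.21 and -0.25 on floxed and 0.04, -0.13 and -0.20 on null arrays, a difference of 0.14 without overlap.

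The other regulators did not pass. Stard4, a carrier that moves cholesterol between membranes, read 0.77, 0.79 and 1.46 on floxed, 0.97, 1.14 and 1.29 on induced and 1.47, 1.71 and 1.75 on null arrays, and differed by 0.64 ± 0.19 (adjusted p = 0.107), and by 0.86 without floxed array 3. Its highest floxed and lowest null readings were separated by little, 1.46 against 1.47. Scap read 2.17, 2.22 and 2.63 on floxed, 2.13, 2.19 and 2.04 on induced and 2.55, 2.62 and 2.35 on null arrays, with a difference of 0.17 ± 0.14 (adjusted p = 0.494), and of 0.32 without floxed array 3. Floxed array 3 gave the highest Scap reading of the 9. Srebf2, the gene of SREBP-2, read 0.45, 0.44 and 0.47 on floxed, 0.72, 0.64 and 0.52 on induced and 0.93, 0.66 and 0.14 on null arrays, and differed by 0.12 ± 0.18 (adjusted p = 0.705). The null arrays of Srebf2 spread on both sides of the floxed arrays, with null array 3 the lowest of the 9. Srebf1 was well above background on 1 floxed, 2 induced and 2 null arrays, so it was not tested; its means were -3.70 on floxed, -3.40 on induced and -3.08 on null arrays.

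In fatty acid synthesis the 2 desaturases rose. Scd1 (chr19:44469387-44469446, mm9) read -1.40, -1.27 and -0.45 on floxed, -0.72, -0.58 and -0.52 on induced and 0.22, 0.08 and 0.06 on null arrays. Its null arrays were above every other array, and its difference of 1.16 ± 0.22 (2.23-fold, adjusted p = 0.0408) was the largest of the 32 genes. Scd2 (chr19:44381024-44381083, mm9) read 3.72, 3.68 and 4.40 on floxed, 4.26, 4.45 and 4.35 on induced and 4.91, 4.88 and 4.71 on null arrays. Scd2 differed by 0.90 ± 0.18 (1.86-fold, adjusted p = 0.0477), again with the null arrays above all others. Without floxed array 3 the differences were 1.45 for Scd1 and 1.13 for Scd2, with slide as a block they were 0.50 and 0.31, and over the 21 alternatives the adjusted p ran from 0.000143 to 0.339 for Scd1 and from 0.000335 to 0.496 for Scd2.

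The enzymes that build the chain did not pass. Fasn, the fatty acid synthase, read 0.0079, -0.07 and 0.05 on floxed, -0.0044, 0.17 and 0.21 on induced and 0.40, 0.50 and 0.25 on null arrays. Its floxed arrays were close together, so floxed array 3 did not stand apart for this gene, and its difference was 0.38 ± 0.10 (adjusted p = 0.0927). Acly, which supplies cytosolic acetyl-CoA to both pathways, read 4.99, 5.12 and 5.50 on floxed, 5.37, 5.38 and 5.33 on induced and 5.68, 5.73 and 5.60 on null arrays, and differed by 0.47 ± 0.13 (adjusted p = 0.0979), and by 0.61 without floxed array 3. Acaca, whose malonyl-CoA feeds the synthase, differed by 0.29, and its null arrays also lay above all floxed arrays. The delta-5 and delta-6 desaturases Fads1 and Fads2, which act on polyunsaturated fatty acids, differed by 0.11 and 0.58, both with overlapping groups, and by -0.03 and 0.72 without floxed array 3. Elovl6, which lengthens palmitate, went the other way: it read 3.24, 3.30 and 3.08 on floxed, 3.20, 3.28 and 3.19 on induced and 2.99, 3.01 and 2.92 on null arrays. Its null arrays were below all others, and the difference was -0.23 ± 0.09 (adjusted p = 0.182, and 0.0323 without floxed array 3, where it lay at -0.30).

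Sterol and fatty acid genes were compared on each array as the median, over the genes of a class, of the log2 signal minus the gene's own mean over 9 arrays. For sterol enzymes this median was -0.41, -0.38 and 0.11 on floxed, -0.09, -0.16 and -0.07 on induced and 0.41, 0.29 and 0.30 on null arrays. For fatty acid genes it was -0.22, -0.26 and 0.02 on floxed, -0.10, -0.01 and -0.03 on induced and 0.27, 0.32 and 0.09 on null arrays. In both classes the null arrays were the highest and floxed arrays 1 and 2 the lowest. Subtracting the fatty acid median from the sterol median gave -0.19, -0.11 and 0.09 on floxed, 0.01, -0.15 and -0.04 on induced and 0.14, -0.03 and 0.20 on null arrays, and these ranges overlapped between all groups. Within the fatty acid class the 2 Scd genes differed between null and floxed cells by 1.16 and 0.90, while Fads1 differed by 0.11 and Elovl6 by -0.23.

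**Figure D3:**
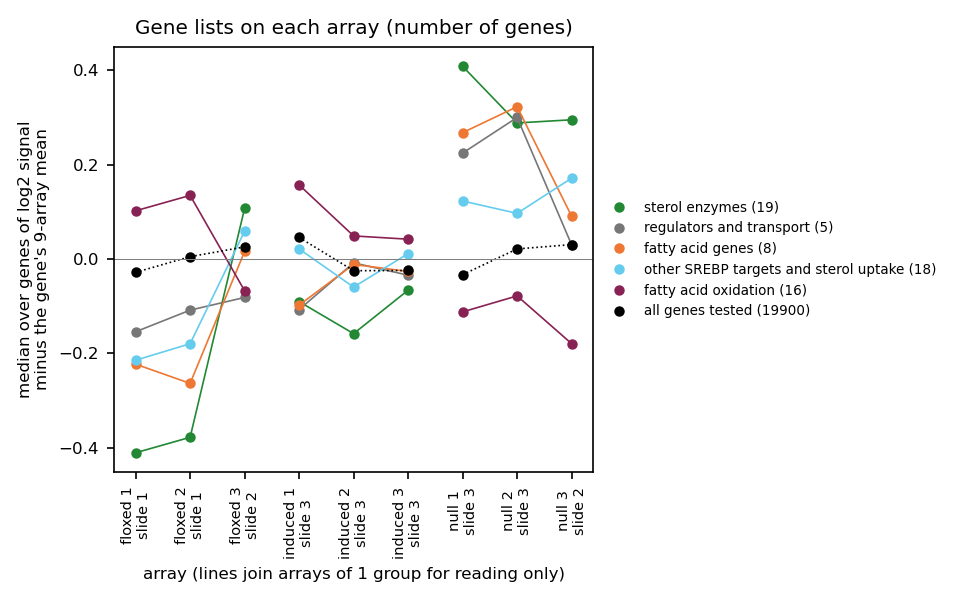
The vertical axis gives, for each array, the median over a list's genes of log2 signal minus the gene's mean over the 9 arrays, and the legend gives the number of genes. Sterol enzymes run from -0.41 on floxed array 1 to 0.41 on null array 1 and stand at 0.11 on floxed array 3, while the median of all genes tested stays near 0.

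Floxed array 3 was above both other floxed arrays for 17 of 19 sterol enzymes, 4 of 5 regulators and 6 of 8 fatty acid genes, against 46.4% of all genes. The median gap to the mean of floxed arrays 1 and 2 was 0.56 for sterol enzymes, 0.44 for regulators and 0.32 for fatty acid genes, beside null minus floxed medians of 0.54, 0.17 and 0.42. It reached 1.04 for Idi1 and 0.92 for Dhcr7, and it was -0.52 for Ggps1. Since slide 2 held 1 floxed and 1 null array, the groups could be set side by side there: null array 3 exceeded floxed array 3 for 16 of 19 sterol enzymes, 3 of 5 regulators and 6 of 8 fatty acid genes, against 51% of all genes, with median gaps of 0.12, 0.06 and 0.14. In this single pair the widest gaps were 0.50 for Scd1 and 0.48 for Insig1, while Srebf2 stood at -0.33 and Scap at -0.28, and there is no replicate behind them. The null minus floxed values given with slide as a block are these same gaps and not a further reading. On slide 3 null arrays 1 and 2 were both above all 3 induced arrays for 13 of 19 sterol enzymes, 3 of 5 regulators and 6 of 8 fatty acid genes, against 24.5% of all genes, with median gaps of 0.47, 0.34 and 0.33. Slide 2 held no other floxed array, so slide and sample cannot be told apart for floxed array 3.

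**Figure D4:**
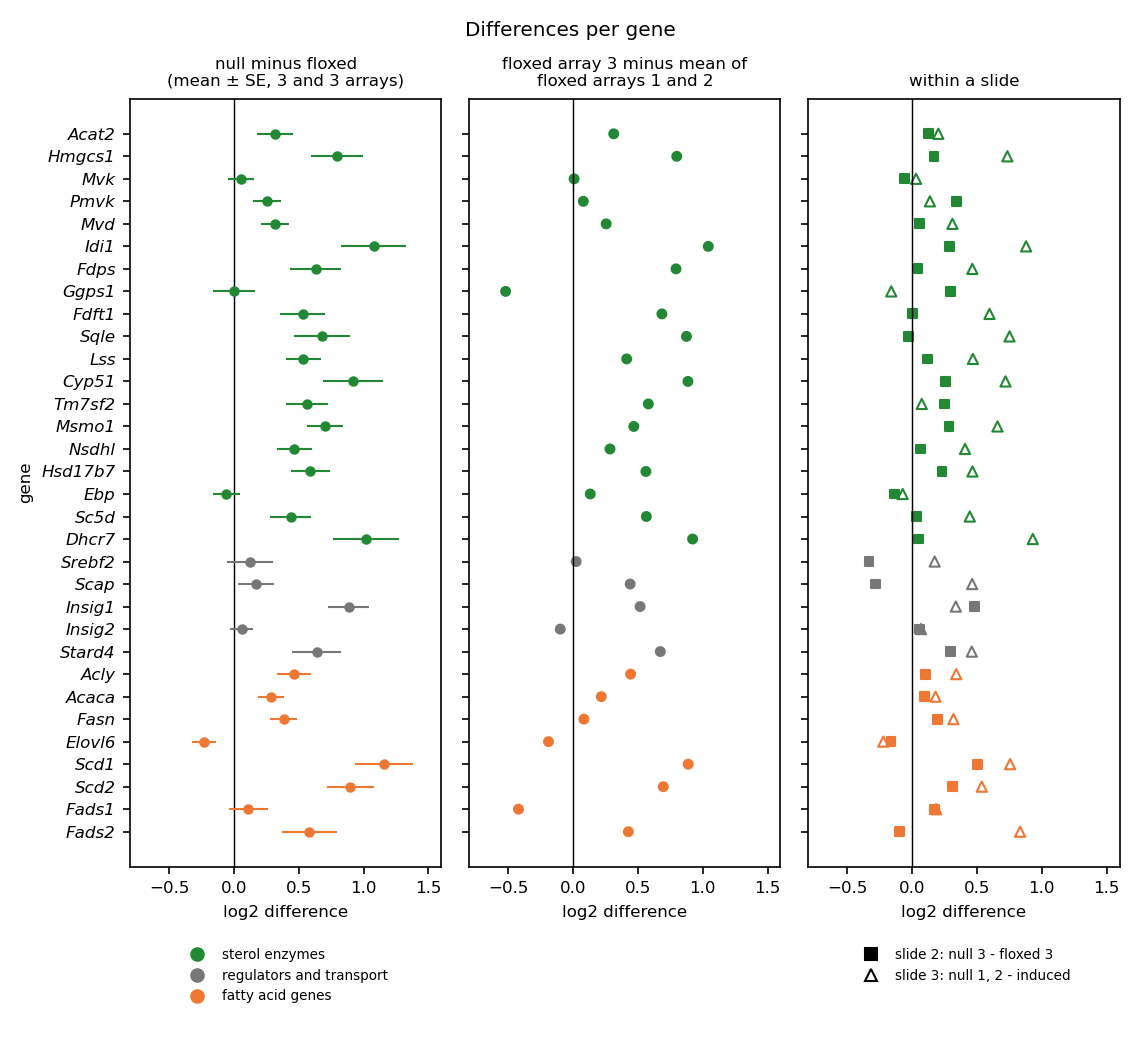
Log2 differences per gene: null minus floxed with its SE (left), floxed array 3 minus the mean of floxed arrays 1 and 2 (middle), and the differences within slide 2 (squares) and slide 3 (triangles; right), with colours for the 3 classes. The left and middle panels both subtract floxed arrays 1 and 2, and Idi1 stands at 1.08 and 1.04 in them, Ggps1 at 0.00085 and -0.52; within slide 2 the sterol enzymes lie between -0.13 and 0.34.

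Against the same floxed arrays, none of the 32 genes passed in the cells collected 4 days after induction. In limma 1 of the 19900 genes passed, 0.00503%, and 5.9% had an unadjusted p under 0.05, 3.37% higher and 2.53% lower in induced cells. Of the 32, 3 were higher by that measure (Insig1, Tm7sf2 and Scd2) and none lower. Because both comparisons use the same floxed arrays, their values are only set side by side. The induced minus floxed difference was 0.58 ± 0.16 for Insig1 (adjusted p = 0.569), 0.45 ± 0.16 for Tm7sf2, a sterol reductase (adjusted p = 0.714), 0.42 ± 0.18 for Scd2 (adjusted p = 0.841) and 0.10 ± 0.14 for Msmo1 (adjusted p = 0.979). The corresponding null minus floxed values were 0.89, 0.57, 0.90 and 0.70. Medians of induced minus floxed were 0.10 for sterol enzymes, 0.13 for regulators and 0.13 for fatty acid genes. Induced arrays lay wholly above floxed arrays for 3 genes, Mvk, Srebf2 and Insig1, against 6.63% of all genes, and wholly below them for none, against 6.26%. Without floxed array 3, 5 genes passed, all higher in induced cells (Idi1, Insig1, Scd1, Scd2 and Tm7sf2), where 0.719% of all genes passed and 0.658% were higher, and with slide as a block the medians were -0.35 for sterol enzymes and -0.17 for fatty acid genes. Among the floxed arrays these block values rest on floxed array 3 alone, since slide 1 held no other group.

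Null and induced cells were compared directly, without floxed array 3 entering the difference itself. None of the 32 genes passed in limma, where 2.19% of all genes did (0.658% higher and 1.53% lower), although 18 were higher and 1, Elovl6, lower at an unadjusted p under 0.05, against 11.3% and 12.6% of all genes, 23.8% together. Null arrays lay wholly above induced arrays for 22 of the 32, against 19% of all genes, and wholly below them for Elovl6 alone, against 18.3%. The differences were 0.83 ± 0.25 for Idi1 (adjusted p = 0.106), 0.73 ± 0.22 for Scd1 (adjusted p = 0.109), 0.61 ± 0.14 for Msmo1 (adjusted p = 0.0649) and 0.31 ± 0.16 for Insig1 (adjusted p = 0.265). Class medians were 0.43 for sterol enzymes, 0.31 for regulators and 0.28 for fatty acid genes. The floxed arrays enter this test through the shared estimate of spread. Without floxed array 3, 16 genes passed, 13 passed with only null and induced arrays in the fit, and 18 passed without the slide 2 arrays, when the difference lay within slide 3 and the sterol enzyme median was 0.47. All of these were higher in null cells, where in the same fits 8.46%, 6.31% and 7.44% of all genes were.

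In 4 neighbouring lipid pathways no gene passed in null against floxed cells, where 1.78% of all genes did. For lists this small, none passing is near that share. Of 18 other SREBP targets and genes of sterol uptake, none passed and the median was 0.25. Npc2, which binds cholesterol in lysosomes, was among the 4 with the smallest p-values and differed by -0.39. Of 10 genes of sterol efflux and the sterol-sensing LXR receptors, none passed and the median was -0.28, with Apoe at -0.73, Abca1, the cholesterol exporter, at -0.47, Lpcat3 at -0.34 and Cyp46a1 at -0.60. Leaving out floxed array 3 gave a median of -0.35, with Apoe at -1.08, but within slide 2 the median was 0.02, with 5 of 10 above 0, and Apoe stood at -0.03. Between null and induced cells Abca1 differed by -1.23 (adjusted p = 0.012), and between induced and floxed cells by 0.77 (adjusted p = 0.344), its means being -1.72 on floxed, -0.96 on induced and -2.19 on null arrays. Of 20 other genes of fatty acid synthesis and elongation, none passed and the median was 0.06, with the elongase Elovl5 at 0.51, the acyl-CoA synthetase Acsl4 at 0.61, Mcat at -0.38 and Fads3 at -0.51. Of 16 genes of fatty acid oxidation, none passed and the median was -0.20, with Cpt1b, a form of the transferase that admits fatty acids to mitochondria, at -0.86, Acadvl at -0.29, Eci1 at -0.29 and Slc25a20 at -0.28. Without floxed array 3 the medians of the SREBP target, other synthesis and oxidation lists were 0.32, 0.14 and -0.23, and within slide 2 they were -0.02, -0.03 and -0.10.

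Markers of other cells differed between the same groups. Summed fibroblast marker signal, relative to the 75th percentile, was 27.2 to 30.8 on floxed, 17.6 to 24.3 on induced and 8.47 to 10.3 on null arrays. Of the 10 markers Lum, Postn and Pdgfrb were above background on no array, and 5 of 6 measured fell in null against floxed cells, against 1.07% of all genes. The sixth, Thy1, differed by 1.37 without passing (adjusted p = 0.104), with null arrays wholly above floxed arrays. Summed trophectoderm signal was 79.2 to 117, 68.5 to 94.1 and 37.1 to 40.3 in the same order, with 4 of 7 measured falling, against the same 1.07%, and Elf5 above background on no array. The null minus floxed difference was above 0 for 1 of the 7. Without floxed array 3 Eomes differed by 0.87, though within slide 2 by -0.26. Floxed array 3 was the lowest floxed array on both sums and still above every null array, at 27.2 and 79.2. Of the liver and visceral endoderm markers 5 of 7, Alb among them, were above background on no array, as were 3 of 6 adipocyte markers. In bulk RNA fewer cells of a type and less RNA per cell cannot be told apart, and the part of these cells in the differences of the lipid genes was not tested.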

How the data were processed

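Spot intensity was deposited by the authors as scanner output of 9 Agilent single-colour arrays, made with Feature Extraction 10.7.3.1 on an mm9 design per the file headers, from Cy3-labelled RNA per the labels' protocols. The processed signal is an intensity after background subtraction within the array, with no scaling between arrays, per the file headers. The authors' series matrix holds the raw mean signal of the same spots (100% of values equal).

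Control and outlier spots were left out, and 5 probes with every spot of an array marked as an outlier were dropped. Log2 signals were centred on each array's 75th percentile. Probes entered the fit where some group had them well above background on each of its 3 arrays (27516 probes), and a gene was represented by its brightest probe, which gave 19900 names. Names came from RefSeq accessions (27229 probes) or else from the files (28452). Exons and UTRs in mm9 were not analysed here.

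Groups of 3 arrays from the labels were compared in 1 limma 3.58.1 fit (R 4.3.3), two-sided, with Benjamini-Hochberg adjustment over all genes. By rule, full values were given for genes that passed in any comparison and for the 4 with the smallest p-values per class in null against floxed cells, and up to 4 genes were named from each other list. Some genes under this rule are not reported here. Genes and lists were chosen with earlier results of these data known. The remaining values, Abca1 against induced cells among them, were chosen after they were seen. Alternatives were quantile normalization, normexp background correction (offset 50), the series matrix, other filters on dim probes, the mean of a gene's probes, slide or replicate number as a block, fewer groups in the fit, and each array left out. Leaving out slide 2 and centring on the median of the genes tested were added after seeing the data.

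On simulated data with 200 changed genes, 68% and 72% of log2 changes of 1 and 93% and 93% of log2 changes of 2 were recovered in null against floxed and null against induced cells, with 7 of 168 and 10 of 175 calls false. The number of arrays limits the precision.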

Additional observations from a re-analysis of the deposited data

How the results depend on the processing

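The count of the 32 genes that passed depended on the processing. In null against floxed cells (4 passed, and 1.78% of all genes) it was 7 with normexp background correction and 0 without a filter on dim probes, with slide as a block, with slide as a random block (correlation 0.51), with the replicate number as a block or with only the compared groups in the fit. Of all genes 2.85% passed with normexp, 0.217% without the filter, 0.518% with slide as a random block and 0.412% with only the compared groups. With slide as a block, each difference from floxed cells depends on the single pair of floxed array 3 and null array 3. The count ran from 0 to 23 when 1 array was left out, with 23 without floxed array 3, and was 23 without the slide 2 arrays, where 24.8% and 25% of all genes passed. The sterol enzyme median (0.54) was 0.12 with slide as a block, 0.36 with slide as a random block, 0.46 to 0.76 with 1 array left out and 0.74 without slide 2, and the fatty acid gene median (0.42) was 0.14 with slide as a block, 0.37 to 0.51 with 1 array left out and 0.56 without slide 2. In induced against floxed cells (0 passed) the count was 0 to 5 with 1 array left out and 3 without slide 2. Of all genes 0.719% passed without floxed array 3, the fit with 5, and 0.563% without slide 2. There the sterol enzyme median (0.10) was -0.35 with slide as a block, -0.0492 as a random block, 0.0177 to 0.26 with 1 array left out and 0.26 without slide 2, and the fatty acid gene median (0.13) was -0.17 with slide as a block. In null against induced cells (0 passed) the count was 18 with slide as a block, 9 as a random block, 13 with only the compared groups, 0 to 16 with 1 array left out and 18 without slide 2, and its sterol and fatty acid medians stayed above 0 in all 21 alternatives. Of all genes 16.3% passed there with slide as a block, 9.07% as a random block and 13.9% with only the compared groups. The shares were 18.1% without floxed array 3, the fit with 16, and 16.3% without slide 2. Some of these fits used fewer samples or tested more genes, and otherwise the cause was not tested. Counts over all genes moved too: 355 passed in null against floxed cells, 4940 without floxed array 3 and 50 with slide as a block. Nothing in the labels says that replicate numbers pair the samples. Deviations of same-numbered arrays correlated between -0.11 and 0.09, and those of differently numbered arrays between -0.12 and 0.10. These ranges do not settle whether samples were paired. The replicate block left 0 of the 32 in each comparison. With it 0.824% of all genes passed in null against floxed cells, 0.00503% in induced against floxed and 0.94% in null against induced. Quantile normalization, the series matrix values, the mean of a gene's probes, the stricter background filter and centring on the median gave 3 or 4 of the 32 in null against floxed cells, where 1.88% to 2.55% of all genes passed. Over single genes, comparisons and alternatives, 1839 values kept their side of the threshold, 1733 of them with the same sign and 106 with the other, 124 passed only under the alternative, 53 lost their call, and none that had passed changed sign.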

Other observations

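Of the 32 genes tested, 12 had more than 1 probe that passed the filter, and Insig1, Msmo1, Scd1 and Scd2 were not among them. Null minus floxed differences of the second probes are given as values. The second probe of Stard4 differed by 0.75 and that of Acly by 0.44, beside 0.64 and 0.47 for the probes used. Hsd17b7 had 2 further probes, at 0.52 and 0.90, beside 0.59. Acaca had 3, at 0.33, 0.44 and 0.56, beside 0.29. The Acaca probe at 0.33 (chr11:84215094-84215153, mm9) covers almost the same bases as the probe used (chr11:84215093-84215152), so it is not a separate reading. The Acaca probe at 0.56 was well above background on 2 floxed, 3 induced and 3 null arrays. It passed the filter only through the induced and null groups. The second Tm7sf2 probe differed by 0.35 beside 0.57. The probe used for Fads2 carries a clone accession, and the RefSeq probe differed by 0.48 beside 0.58. The probes of Ggps1 differed by 0.00085, -0.05 and -0.27. Second probes differed by 0.09 for Mvk, 0.29 for Pmvk, 0.10 for Srebf2 and 0.14 for Insig2, beside 0.06, 0.25, 0.12 and 0.06. That of Nsdhl differed by 0.21 beside 0.46. It was well above background on 1 floxed, 2 induced and 3 null arrays, so it passed the filter only through the null group.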
